A study of Mus musculus with 3 samples.

Results

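The CXC chemokine ligands are small secreted proteins that guide leukocytes, named for a conserved pair of cysteines with a single residue between them. The genes described here are Cxcl1, Cxcl2, Cxcl9, Cxcl10, Cxcl12, Cxcl16, Pf4 and Ppbp, taken by gene symbol. All 8 were found among the 14811 genes of the table. Kidney macrophages had been isolated by flow cytometry from 3 C57BL/6J mice with no named transgene or mutation and sequenced as 1 RNA-seq library per mouse, replicates 1 to 3 of 1 group. Every mouse had been given PBS into a vein 1 h before its kidneys were removed, and the kidneys were digested for 30 min at room temperature in an enzyme mix. The labels give neither the age of the mice nor the surface markers of the sort, and there is no group without an injection. With a single group, the data give levels, the differences between members within a library, and the spread between animals.

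The members fall into functional classes. Cxcl1, Cxcl2 and Ppbp carry the Glu-Leu-Arg motif ahead of the cysteines and draw neutrophils through Cxcr2. Cxcl9 and Cxcl10 are induced by interferon and draw T and NK cells through Cxcr3. Cxcl12 is made by stromal and endothelial cells at rest and acts on Cxcr4, while Ackr3 removes it. Cxcl16 is made as a membrane protein that binds Cxcr6, takes up oxidised lipid, and is cut from the surface by Adam10 and Adam17. Pf4 and Ppbp are best known from platelet granules, and Pf4 is also transcribed in many tissue macrophages. Tissue macrophages are a known source of Cxcl1 and Cxcl2 after activation.

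The DNA ahead of the start sites of 4 members is shown first, since Cxcl1 with Cxcl2 and Cxcl9 with Cxcl10 are neighbours by sequence or position whose transcripts are compared below. The sequences are from RefSeq (build GRCm38.p6, which is not the build mm9 that the submitters' processing notes name), matched by symbol, and 7 of the 8 members had an entry. Each is the 250 bases before the start site, 5′ to 3′ on the strand of the gene, at chr5:90890995-90891244 (plus strand) for Cxcl1, chr5:90903649-90903898 (plus strand) for Cxcl2, chr5:92328080-92328329 (minus strand) for Cxcl9 and chr5:92348890-92349139 (minus strand) for Cxcl10. Capitals mark matches, searched on both strands, to the NF-kB consensus, to the interferon-stimulated response element TTTCNNTTTC and to the interferon-gamma-activated site TTCNNNGAA.

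Cxcl1: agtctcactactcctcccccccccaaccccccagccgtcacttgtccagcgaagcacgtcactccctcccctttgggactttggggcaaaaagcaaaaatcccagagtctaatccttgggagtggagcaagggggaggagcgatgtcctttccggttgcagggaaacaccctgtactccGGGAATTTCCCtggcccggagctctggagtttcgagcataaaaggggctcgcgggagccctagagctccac
Cxcl2: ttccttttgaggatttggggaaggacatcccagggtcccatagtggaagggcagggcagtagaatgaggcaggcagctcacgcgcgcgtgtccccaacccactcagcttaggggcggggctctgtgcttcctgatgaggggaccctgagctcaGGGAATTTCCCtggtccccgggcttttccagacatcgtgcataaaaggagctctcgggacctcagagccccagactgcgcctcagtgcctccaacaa
Cxcl9: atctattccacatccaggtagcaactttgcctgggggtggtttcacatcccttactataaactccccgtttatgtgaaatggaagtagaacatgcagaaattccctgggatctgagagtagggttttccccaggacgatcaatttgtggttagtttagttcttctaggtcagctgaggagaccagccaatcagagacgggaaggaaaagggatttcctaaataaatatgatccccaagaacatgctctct
Cxcl10: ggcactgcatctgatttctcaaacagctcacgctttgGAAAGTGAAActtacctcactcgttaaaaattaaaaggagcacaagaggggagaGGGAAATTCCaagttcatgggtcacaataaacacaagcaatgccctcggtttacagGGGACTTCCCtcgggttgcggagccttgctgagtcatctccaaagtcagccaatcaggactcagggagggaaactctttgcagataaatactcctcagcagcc

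Cxcl1 and Cxcl2 shared the same stretch GGGAATTTCCC, which matched the NF-kB consensus once on each strand with the matches overlapping. It ended 60 bases before the start site in Cxcl1 and 86 bases before it in Cxcl2. Cxcl10 held NF-kB matches at GGGAAATTCC and GGGACTTCCC, and 1 match to the interferon-stimulated response element, read as GAAAGTGAAA on the strand of the gene. The Cxcl9 window held no match to any of these letters, and neither did those of Ppbp, Pf4 and Cxcl12. Of all 32841 RefSeq windows of this length, 3.90% held an NF-kB match, 2.98% an interferon-stimulated response element and 7.02% an interferon-gamma-activated site. These matches are descriptions of letters and were not linked to binding.

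Summed over the table, mouse 1 had 50951549 reads, mouse 2 had 56718534 and mouse 3 had 50646558. One read was worth 0.806, 0.555 and 0.705 normalised reads, and a gene listed at 0 can have up to 2.42, 1.66 and 2.11 (3 reads, counting error only). All 10 macrophage markers reached 10 normalised reads in each animal, led by C1qb (307093 ± 45157), Lyz2 (117633 ± 18383) and C1qa (52143 ± 11609, SD, n = 3). Markers of kidney tubule and podocyte were also present, with summed levels of 39868, 193847 and 15626 normalised reads in mice 1, 2 and 3, mostly the proximal tubule gene Kap at 35490.3, 172061 and 13511. The transporter Slc34a1 (3973 ± 4080) and the endocytic receptor Lrp2 (3471 ± 4506) followed. Of 10 T and NK cell markers 2 were measured, with Cd3e at 0 in every mouse and Cd3d at no more than 1.11. Of 7 erythroid markers 1 was measured, Hba-a1, at 0 in every mouse. Of 7 B cell markers 2 were measured: Cd79b was at 227, 3940 and 6359, while Cd22 was at 0 in every mouse. The other markers of these lists were not analysed here. Of the dendritic cell markers, Itgax (3556 ± 1418), Clec9a (2071 ± 1171) and Xcr1 (314 ± 277) were highest, and Ccr7 and Cd209a were at 0 in every mouse.

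Cxcl16 had the most normalised reads of the 8 genes, Pf4 was second, and these were the only members at a similar level in all 3 animals. Divided by exon length the gap between them was smaller, with means of 14528 and 8528 normalised reads per kb. Together the 8 genes took 0.173%, 0.144% and 0.150% of the reads in mice 1, 2 and 3. Cxcl16 made up 75.8%, 75.2% and 82.2% of the members' summed normalised reads, and Pf4 8.97%, 15.0% and 9.91%. The other 6 members made up 15.2%, 9.80% and 7.88%, and which of them led changed from mouse to mouse. All 8 had a mean of 10 or more normalised reads, 7 were above 0 in every mouse, and 5 reached 10 in every mouse. In bulk RNA, fewer cells that make a transcript and less of it per cell cannot be told apart.

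Cxcl16, the membrane-bound ligand of Cxcr6, was at 53788, 33969 and 43905 normalised reads in mice 1, 2 and 3 (43888 ± 9910, SD, n = 3). Its highest mouse was 1.58-fold above its lowest. Per kb of exon it was at 14528 ± 3280 normalised reads, above 99.0% to 99.2% of tested genes in each library. Exons of Cxcl16 overlap those of Zmynd15 on the other strand over 552 bases, 18.3% of its length, and the counting is not stated to use strand, so some of its reads may have been set aside or assigned there. Zmynd15 itself was at 3699 ± 2078.

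The proteases that release Cxcl16 were present with it. Adam17, also known for releasing tumour necrosis factor, was at 10221, 2544 and 11889, and Adam10 was at 3044, 2803 and 4156. Both were above the median gene of their libraries (Adam17 log2 difference 3.55 ± 0.63 SE, adjusted p = 1.89e-07; Adam10 3.05 ± 0.70 SE, adjusted p = 9.49e-05, limma). The receptor Cxcr6 was at 0 in every mouse. In mouse 2, where Cxcl16 was lowest, Adam17 was lowest too. Adam10 was lowest there under the deposited scaling, at 2803 beside 3044 in mouse 1. Scaled to equal totals, Adam10 was lowest in mouse 1. Under the deposited scaling the order of Cxcl16, mouse 1, 3, 2, was held by 15.5% of all tested genes. That of both proteases, mouse 3, 1, 2, was held by 13.7%. The orders 1, 2, 3 and 3, 2, 1 and 2, 1, 3 were held by 17.8%, 17.5% and 17.2%. A link between the ligand and the proteases was not tested.

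Pf4, platelet factor 4, which binds heparin and lacks the Glu-Leu-Arg motif, was at 6360, 6796 and 5290 normalised reads (6149 ± 775). This is the smallest relative spread of the 8 genes under the deposited scaling, with a coefficient of variation of 12.6%. Scaled to equal totals, Cxcl16 was the steadier of the pair: the SD over mice of its log2 values was then 0.14 and that of Pf4 0.30, beside 0.33 and 0.19 under the deposited scaling. Ppbp, the neighbouring platelet gene, was at 2.42, 1.11 and 1698. In reads this is 3, 2 and 2409, with exact Poisson 95% intervals in normalised reads of 0.499 to 7.07, 0.134 to 4.01 and 1631 to 1767. Mouse 3 alone held the Ppbp transcript in quantity, and the same mouse had the lowest Pf4.

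Of the 12 platelet and megakaryocyte markers, 2 were measured and the others were not analysed here. Itga2b, the platelet integrin chain, was at 0 in every mouse. Clec1b, the platelet receptor CLEC-2, was at 342, 1196 and 235, lowest in the mouse with high Ppbp. Its order, mouse 2, 1, 3, was that of Pf4 and of 17.2% of all tested genes. Pf4 was between 5290 and 6796 in the same libraries in which Itga2b was at 0. The part of platelet RNA in the Pf4 and Ppbp values was not tested.

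Among genes that resembled Ppbp in going from near 0 to high in mouse 3, the closest were Stk26 (6.45, 3.33 and 3657), Wdr41 (13.7, 8.88 and 6820) and Gm43420 (1.61, 0.555 and 1084). Likeness was the largest log2 difference over the 3 mice after centring each gene, and it was 0.05 for Stk26, 0.11 for Wdr41 and 0.16 for Gm43420. Of the tested genes, 10 lay within 0.25 of Ppbp, which itself rested on 3 and 2 reads in mice 1 and 2. The window is fixed, so its counts cannot be compared between genes of unlike spread. A single high mouse was common: in 10.0% of tested genes the highest mouse was over 100-fold above the middle one on the value + 1 scale, and 14.5% were listed at 0 in at least 1 mouse. For Cxcl16, 327 genes lay within 0.25, with C1qc (199138, 124776 and 161311), Bmyc (5524, 3513 and 4430) and Mrpl33 (3909, 2413 and 3233) closest, at 0.01, 0.02 and 0.03. Over 3 libraries such likeness says little about any single gene.

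The neutrophil-directed ligands Cxcl1 and Cxcl2 did not move together over the 3 mice. Their promoters carry the same NF-kB stretch, and its part in either level was not tested. Cxcl1 was at 1782, 13.9 and 1498 normalised reads (1098 ± 949.7). Cxcl2, also called MIP-2, was at 4.03, 147 and 787 (313 ± 417). In mouse 1 Cxcl1 was high and Cxcl2 was nearly absent, with 2210 and 5 reads. In mouse 2 Cxcl2 was above Cxcl1, and in mouse 3 both were high. Cxcl1 was 128-fold higher in its highest than in its lowest mouse and Cxcl2 195-fold. The receptor gene Cxcr2 was not analysed here, and the related Cxcr1 was at 0 in every mouse.

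Neutrophil markers were at or near 0. Of the 10 markers, 2 were measured, with S100a9 at 0 in every mouse and Csf3r at 19.4, 3.33 and 0. The summed level was 19.4 in mouse 1, where Cxcl1 was highest and Cxcl2 lowest. It was 0 in mouse 3, where both ligands were high. The part of neutrophil RNA in the Cxcl1 and Cxcl2 values was not tested.

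Of the 14 genes fixed for the NF-kB route, all had a mean of 10 or more, 3 were above the median gene and 1 below (limma), beside 22.7% and 4.32% of all tested genes. These shares are close to the background. The 3 were Nfkbia, which encodes the inhibitor that NF-kB itself induces (7991, 3428 and 5871), Zfp36, which destabilises Cxcl1 and Cxcl2 transcripts (4172, 773 and 9849), and the adaptor Myd88 (438, 1023 and 3125). Their log2 differences to the median gene were 5.38 ± 0.45 SE (adjusted p = 9.14e-32), 3.50 ± 0.64 SE (adjusted p = 3.99e-07) and 2.43 ± 0.80 SE (adjusted p = 0.0118, limma). The interleukin-1 receptor Il1r1 was below it, at 1.61, 3.33 and 28.9 (log2 difference -6.21 ± 2.43 SE, adjusted p = 0.0414, limma). Calls below depended on the pseudocount: 501 genes were called below, and 60 with a pseudocount of 0.1. The median of the list was -0.83, beside -0.76 over all tested genes. By mean level Nfkbia and Zfp36 were followed by the kinase Ikbkb (2819 ± 811) and the subunit precursor Nfkb1 (2037 ± 1484), and neither of these passed the test (log2 differences 0.83 ± 1.17 SE, adjusted p = 0.611, and 0.68 ± 1.21 SE, adjusted p = 0.687, limma).

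The order of the mice can be set beside that of the ligands, a comparison chosen after the values were seen and given without a test. For Cxcl1 the order was mouse 1, 3, 2, shared by 3 of the 14 genes (Rela, Nfkbia and Tnfaip3) and by 15.5% of all tested genes. The inducible inhibitor Tnfaip3 was at 4850, 5.55 and 49.3, and Rela, the transactivating subunit, at 1850, 18.3 and 879. For Cxcl2 the order was mouse 3, 2, 1, shared by 4 of the 14 (Il1r1, Myd88, Irak1 and Ikbkb) and by 17.5% of tested genes.

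The interferon-inducible ligands Cxcl9 and Cxcl10 also differed in their pattern. Cxcl9 was at 7236, 989.5 and 206 normalised reads (2811 ± 3853), highest in mouse 1. Cxcl10 was at 1177, 3259 and 16.9 (1484 ± 1643), highest in mouse 2. Both were lowest in mouse 3, where Cxcl10 rested on 24 reads. Cxcl9 spanned 35.2-fold and Cxcl10 193-fold between the highest and lowest mouse. Cxcl11, the third ligand of this class and a transcribed pseudogene in the reference strain, was at 0, 273 and 0, seen only in the mouse with the highest Cxcl10. Mouse 2 also had the highest summed tubule markers, and their part in the Cxcl10 and Cxcl11 values was not tested. Exons of Cxcl10 share 133 bases (5.91%) with Art3 on the other strand, and Art3 was at 0, 0 and 5.64.

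All 11 genes described for the route from interferon to these ligands reached 10 normalised reads in each animal. Of the 11, 7 were above the median gene (limma), beside 22.7% of all tested genes, and none was below at an adjusted or an unadjusted p under 0.05, beside 4.32% at the adjusted threshold. The highest were Ifngr1, a chain of the interferon-gamma receptor (25351, 20562 and 29863), the type I receptor chains Ifnar2 (9040 ± 2163) and Ifnar1 (5597 ± 4524), and Irf1 (7602 ± 6616), a transcription factor induced by interferon-gamma. The list median was 2.92 log2 units above the median gene, beside -0.76 over all tested genes. Irf1 was at 15142, 4897 and 2767, and Irf9 at 5434, 1684 and 769.

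Cxcl9, Irf1 and Irf9 thus ranked the mice alike, from mouse 1 down to mouse 3, as did Ifnar1 and Irf3. This order, picked out after the values were seen, was held by 4 of these 11 genes and by 17.8% of all tested genes. The member Cxcl12 held it too, as did Irak4 and Nfkb1 of the NF-kB list. The span differed: Irf1 fell by 2.45 log2 units from mouse 1 to mouse 3, Irf9 by 2.82 and Cxcl9 by 5.13. The opposite order was held by 3 of the 11 genes and by 17.5% of all tested genes. The 3 were Irf7, induced by type I interferon (73.4, 668 and 4053), the receptor chain Ifnar2 (7011, 8791 and 11316) and the receptor-bound kinase Jak1 (3455, 3763 and 6677). No gene of the list had the order of Cxcl10, mouse 2, 1, 3, which 17.2% of all tested genes held. Of the 14 NF-kB genes 2 had it, Relb and Nfkb2, and so did the member Pf4.

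Cxcl12, which holds haematopoietic cells in their niches, had the lowest mean of the 8 members per kb of exon. It ranked last in mouse 3 only: in mouse 1 it lay above Ppbp and Cxcl2 and in mouse 2 above Ppbp, and without mouse 3 Ppbp had the lowest mean. Cxcl12 was at 580, 18.3 and 0 normalised reads (719, 33 and 0 reads), so it was seen in quantity in mouse 1 only. The stromal markers had summed levels of 963, 621 and 202, and were also highest in mouse 1, where Dcn (906, 0.555 and 154) made up most of the sum. Tagln (0.806, 491 and 0.705) and Col3a1 (11.3, 54.4 and 17.6) were the next highest stromal markers. Endothelial markers summed to 549, 145 and 1396, with Tek at 0 in every mouse. The high sum in mouse 3, where Cxcl12 was at 0, was almost all Kdr (453, 7.77 and 1345). Other endothelial markers did not follow it: Emcn (71.8, 99.3 and 38.1) was lowest in mouse 3, Ehd3 (15.3, 2.22 and 7.75) was highest in mouse 1, and Cdh5 and Cldn5 were seen in mouse 2 only. The part of stromal RNA in the Cxcl12 value was not tested.

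Its signalling receptor Cxcr4 was far steadier, at 619, 1110 and 969 (899 ± 253), and lay above the median gene (log2 difference 2.58 ± 0.78 SE, adjusted p = 0.00465, limma). The scavenging receptor Ackr3, the only atypical receptor measured of a list of 4, was at 3.23, 873 and 2.82, high in mouse 2 alone, the mouse with the most tubule RNA, whose part in that value was not tested. Per kb of exon Cxcr4 was at 497 ± 140.0 and Cxcl12 at 24.4 ± 40.3 normalised reads. Cxcr4 was the only measured receptor of the CXC class above 0, since Cxcr1 and Cxcr6 were at 0 and the others were not analysed here.

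Proteases that trim secreted CXC ligands were dominated by Mmp12, the macrophage metalloelastase, at 30351, 49594 and 65895. Dpp4, which cuts Cxcl9, Cxcl10 and Cxcl12 near the amino end, was at 38.7, 751 and 2228. Mmp2 and Mmp14 stayed below 10 in every mouse. Of a list of 10 proteases 6 were measured and 4 reached the mean of 10 needed for the test. Of these 4, Mmp12, Adam17 and Adam10 were above the median gene (limma), beside 22.7% of all tested genes, and none was below at an adjusted or an unadjusted p under 0.05, beside 4.32% at the adjusted threshold. Of 7 further CXC ligands 3 were measured, and besides Cxcl11 they were scarce, with Cxcl14 at 7.26, 42.2 and 3.52 and Cxcl3 at 0 in every mouse.

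Per kb of exon, which allows levels of different genes to be compared, the order of means was Cxcl16 (14528 ± 3280), Pf4 (8528 ± 1075), Cxcl9 (932 ± 1277), Cxcl10 (659 ± 729.6), Cxcl1 (586 ± 507), Ppbp (524 ± 904), Cxcl2 (151 ± 202) and Cxcl12 (24.4 ± 40.3). Cxcl16 was first and Pf4 second in each of the 3 libraries. Cxcl16 exceeded Pf4 by 0.75 ± 0.43 log2 units (SD, n = 3), higher in 3 of 3 mice, and Pf4 exceeded Cxcl9 by 4.49 ± 2.45, also in 3 of 3. The other 5 neighbouring pairs could not be ordered beyond their spread. For instance, the log2 ratio of Cxcl9 to Cxcl10 was 2.20, -2.14 and 3.11, and that of Cxcl10 to Cxcl1 was -0.86, 7.51 and -6.65. Of the 15 pairs among these 6 genes, 3 kept the same order in all mice: Cxcl9, Cxcl10 and Cxcl1 each lay above Cxcl12. No test of single pairs is given, because with 3 libraries the smallest exact two-sided p from flipping signs is 0.25.

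Against the median tested gene of each library, also per kb, Cxcl16 lay 7.46 ± 0.32 SE log2 units higher (adjusted p = 2.10e-118), Pf4 6.71 ± 0.36 SE (adjusted p = 4.38e-76) and Cxcl9 2.22 ± 0.84 SE (adjusted p = 0.0330, limma). These 3 of 8 members were called above, beside 22.7% of the 11603 tested genes. No member was called below at an adjusted or an unadjusted p under 0.05 (limma), beside 4.32% of tested genes. The median over the 8 members was 1.17, beside -0.76 over all tested genes. Cxcl16 and Pf4 were above the median gene in 3 of 3 mice, Cxcl9 in 2 of 3, and Cxcl12 in 0 of 3.

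These calls use the typical spread of genes at the same level in place of the gene's own, because the fit put all weight on that trend. With a single spread prior for all genes, no gene was called (adjusted p = 0.0665 for Cxcl16 and for Pf4, 0.281 for Cxcl9, limma), although 2186 genes lay above and 1990 below at an unadjusted p under 0.05. The Cxcl9 call also ended without mouse 1 (log2 difference 0.82, adjusted p = 0.735, limma), without mouse 2 (2.45, adjusted p = 0.245) and without division by exon length (1.92, adjusted p = 0.126). Single mice decided further members: Cxcl1 was called above without mouse 2 (3.55, adjusted p = 0.00333), Cxcl10 above without mouse 3 (3.37, adjusted p = 0.000205) and Cxcl12 below without mouse 1 (-7.31, adjusted p = 1.59e-06, limma).

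**Figure D1:**
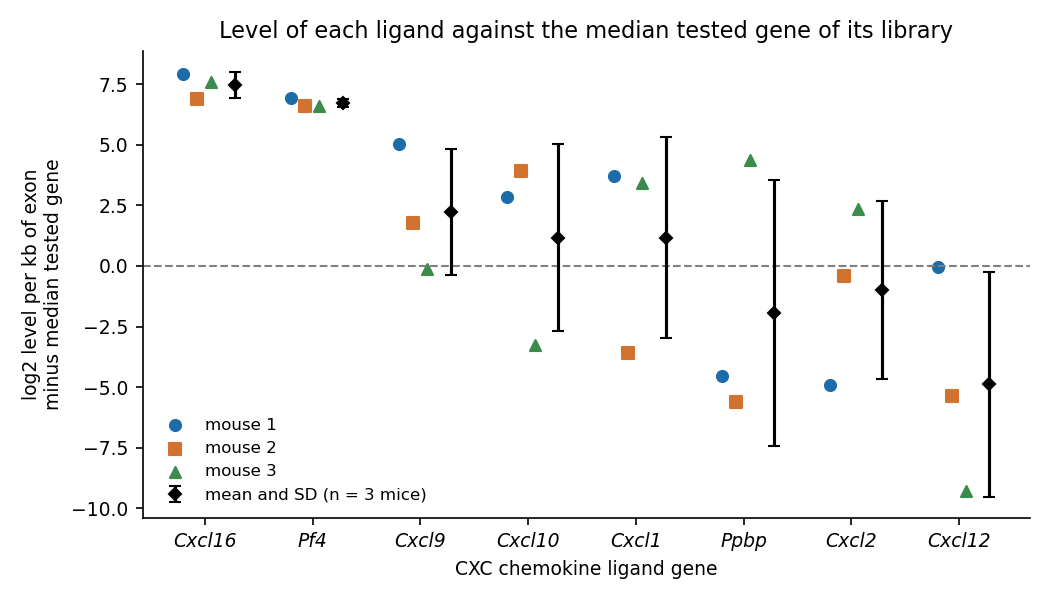
Level of each ligand per kb of exon in each mouse, as the log2 difference to the median tested gene of that library (vertical axis, dashed line at 0), with genes in order of mean level per kb. Points are mice and diamonds with bars are means with the SD over 3 mice. The lowest point of Cxcl16 is at 6.87 and that of Pf4 at 6.61, while Cxcl9, Cxcl10, Cxcl1, Ppbp and Cxcl2 have mice on both sides of 0.

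Spread between animals separated the members as clearly as level did. The SD over mice of log2(normalised read count + 1) was 0.33 for Cxcl16 and 0.19 for Pf4. It was 2.57 for Cxcl9, 3.71 for Cxcl2, 3.92 for Cxcl1, 3.98 for Cxcl10, 4.59 for Cxcl12 and 5.38 for Ppbp. Tested genes within 1 log2 unit of the same level had a median SD of 0.42 for Cxcl16 and 0.67 for Pf4. Both members lay below that median, Cxcl16 with a larger SD than 39.2% of those genes and Pf4 than 7.15%. The other 6 lay above the median of their level. Those medians were 1.28 for Cxcl9, 2.31 for Cxcl10, 2.55 for Cxcl1, 3.65 for Cxcl2 and 3.75 for Ppbp and Cxcl12. Ppbp had a larger SD than 98.8% of genes at its level and Cxcl9 than 86.2%, while Cxcl2 was close to the middle at 52.6%. Such spread was widespread in these libraries, where 61.0% of tested genes differed over 10-fold between the highest and lowest mouse (value + 1 scale), as did 6 of the 8 members.

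**Figure D2:**
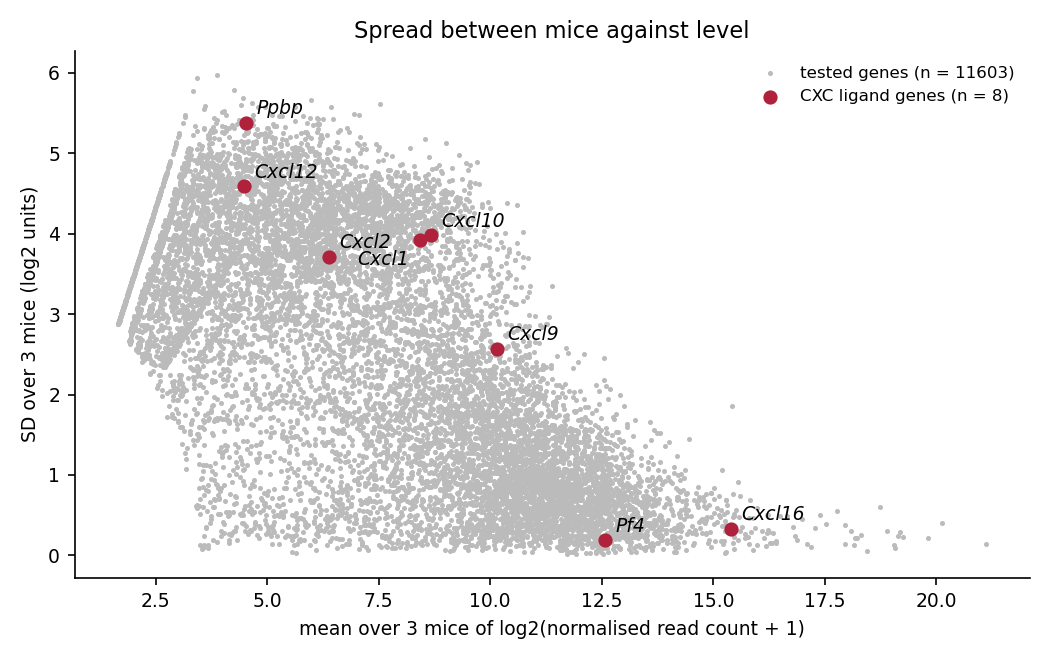
SD over 3 mice of log2(normalised read count + 1), vertical axis, against the mean of the same values, horizontal axis; grey points are the 11603 tested genes and red points the 8 CXC ligand genes. Cxcl16 and Pf4 sit low on the right, and Cxcl9 (2.57), Cxcl1 (3.92) and Cxcl10 (3.98) lie above the bulk of genes at their level.

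Of the 8 genes, 6 lie in 2 groups on chromosome 5 of the reference, and no single pattern of levels ran through all genes of either. In the first, the order of genes in the RefSeq annotation was Cxcl5, Ppbp, Pf4, Cxcl3, Cxcl15, Cxcl1 and Cxcl2, then the folate enzyme gene Mthfd2l. Pf4, at 5290 to 6796 in the 3 mice, stood between Ppbp, below 3 in 2 mice, and Cxcl3, at 0 in all. Cxcl5 and Cxcl15 were not analysed here. In the second, Cxcl9 was followed by Art3, Cxcl10 and Cxcl11, with Sdad1 ahead of it (0, 95.5 and 0.705). Cxcl10, Cxcl11 and Sdad1 were highest in mouse 2, and Cxcl9 in mouse 1.

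**Figure D3:**
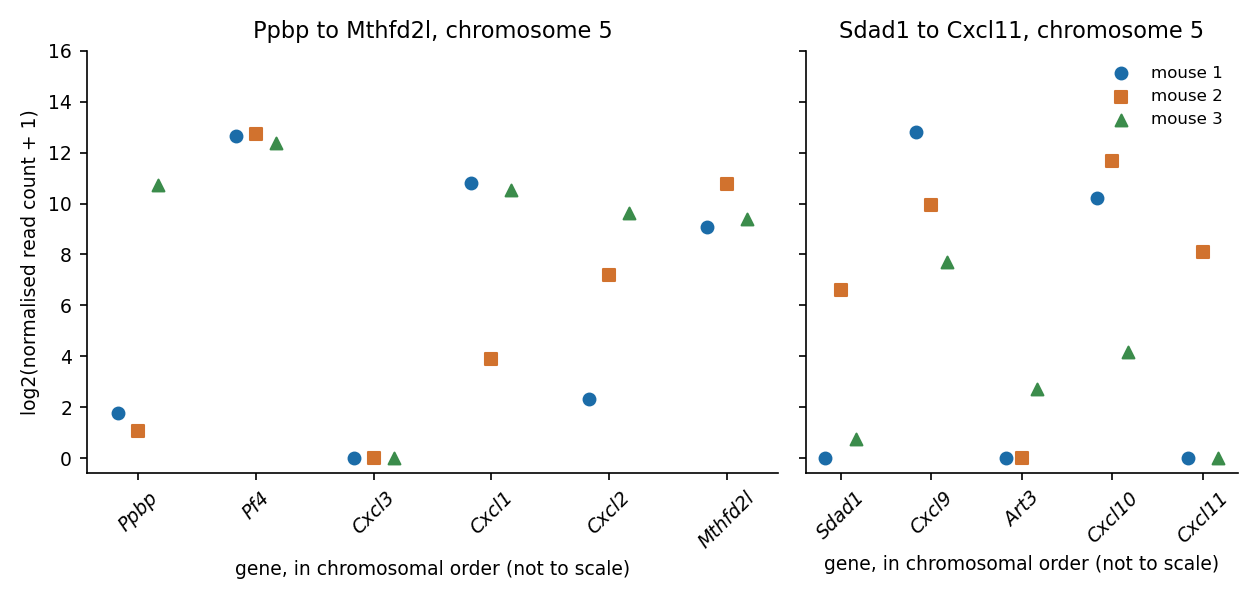
Level in each mouse, as log2(normalised read count + 1), of genes in their chromosomal order (horizontal axis, not to scale) in 2 stretches of chromosome 5; Cxcl5 and Cxcl15 are left out. Pf4 is high in all 3 mice beside Ppbp, high in mouse 3 only, and Cxcl3, at 0 in all, and Cxcl11 appears in mouse 2 only.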

How the data were processed

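RNA was measured in 3 libraries of sorted kidney macrophages, 1 per mouse. Per the labels' protocols, cDNA was amplified with a SMART-seq kit and 10 ng was made into libraries with 8 PCR cycles. The unit of the deposited table is a normalised signal. The authors used HTSeq 0.5.4 for counting and DESeq 1.18.0 for scaling, with build mm9, per the submitters' processing notes. The sources used here name no aligner, annotation or row filter. The lowest value is 1 in each library, and after removal of this 1, 100% of values were multiples of what 1 read is worth there (within 0.05 of a read), which gives the reads quoted. PCR copies are not independent molecules, so intervals and floors cover counting error only.

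Levels are mean ± SD (n = 3 mice). Log2 values add a pseudocount of 1 and understate differences of low genes. Exon lengths came from GENCODE M21 by gene identifier and covered 99.6% of genes. Of the genes with a mean of 10 or more, 11603 had a length and were tested. Their log2 values per kb, centred on the median gene of each library, were fitted with limma 3.58.1 (intercept only, two-sided, variance trend) in R 4.3.3. P-values were adjusted by Benjamini-Hochberg over all tested genes. The fit was checked on simulated data with normally spread log2 values set well above 0, so zeros and low counts were not covered. Python 3.11.15, numpy 2.4.6, pandas 2.3.3, scipy 1.17.1 and matplotlib 3.10.9 were used otherwise.

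Named were all members, the highest genes of each list (4 for pathways, 3 for cell types), genes at 0 in every mouse, the nearest genes by likeness, and list genes sharing a member's order of mice. Members and lists were chosen with earlier results of these data known, and motifs, mouse orders and chromosomal neighbours after the values were seen. Alternatives were the pseudocount, the low-value filter, exon length, the scaling, the variance prior and leaving out each mouse. Of the interferon list, 1 gene is not reported here.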

Additional observations from a re-analysis of the deposited data

How the results depend on the processing

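No paired analysis was possible because there is 1 group. The planned edgeR test of recovered reads was not run, since the added constant kept the values from being accepted as counts. The 3 members called above became 2 without division by exon length and 0 with a single variance prior (limma), where the counts of genes called above and below and of pathway genes called above were also 0, with 2186 above and 1990 below at an unadjusted p under 0.05. Without each mouse in turn, 2 to 4 members were called above and 0 to 1 below. The number of genes called below was 501, and became 60 with a pseudocount of 0.1, 1240 with 10, 2382 without the filter, 819 with a robust prior (an alternative added after the data were seen) and 680 to 1573 without a mouse. The number called above ran from 2456 to 3235 under the alternatives other than the single prior. The sign of uncalled members changed for Cxcl2 without the filter (0.24) and without single mice, where the log2 difference ran from -0.095 to 3.55 for Cxcl1, from -2.67 to 0.96 for Cxcl2 and from -0.20 to 3.37 for Cxcl10. The cause of these shifts was not tested. Scaled to equal totals, the log2 SD was 0.14 for Cxcl16 and 0.30 for Pf4, in the opposite order to the deposited scaling. With the smallest counts, 0 to 5 reads for Cxcl12, Ppbp and Cxcl2 in 1 or 2 mice, depth limits what can be said of a level.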
